A study of Mus musculus with 9 samples.

Results

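Catecholamine and sympathetic neuron genes were followed through 9 RNA-seq libraries of dorsal root ganglia (DRG) from mouse embryos at E18.5. They are 8 of the 55247 genes in the deposited count table: Th, Ddc, Dbh, Slc18a2, Slc6a2, Phox2a, Hand2 and Gata3. They were taken by gene symbol, and the set was selected on measured values, since Th was to be set beside sympathetic genes already known to peak in single libraries. The levels and fold changes of these 8 genes are therefore given as a description, with no test of the set. Each gene had 1 row in the table, and rows with low counts were kept.

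The study compared 3 genotypes with 3 libraries each. WT embryos are named with neither altered allele. Isl1Cre/+ embryos carried Cre recombinase in 1 copy of Isl1, and their name gives no floxed Meis2 allele. Isl1Cre/+::Meis2LoxP/LoxP embryos, called Meis2 mutant here, carried the same Cre copy and 2 floxed copies of Meis2, so that they shared the altered Isl1 allele with the Isl1Cre/+ embryos and not with the WT. Cre from the Isl1 locus acts in every cell that has expressed Isl1, which includes sensory neurons and, as background, sympathetic neurons. Neither the sex of the embryos nor whether a library came from 1 embryo or from a pool is stated in the sources used here. The study describes its replicates in general as biological, and p-values measure the spread between these libraries.

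Catecholamines are made from tyrosine. Tyrosine hydroxylase (Th) makes L-DOPA, aromatic L-amino acid decarboxylase (Ddc) makes dopamine, the vesicular transporter Slc18a2 loads it into vesicles, and dopamine beta-hydroxylase (Dbh) makes noradrenaline inside them. The noradrenaline transporter Slc6a2 takes the transmitter back up from outside the cell. In sympathetic neurons this set of genes is switched on by transcription factors that include Phox2a, Hand2 and Gata3. Sympathetic ganglia lie close to the DRG along the trunk. The DRG have their own Th-expressing cells, the C-fibre low-threshold mechanoreceptors (C-LTMRs), sensory neurons of hairy skin that respond to gentle touch and signal with glutamate.

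Library totals ran from 23854607 to 29103444 counts. Levels below are in cpm, counts scaled by TMM to a common library size, which corrects for library composition. Meis2 was at 94.9 to 109 cpm in WT, 89.1 to 102 cpm in Isl1Cre/+ and 40.5 to 41.0 cpm in Meis2 mutant libraries, in the direction of the labels. Sensory neuron markers of the DRG summed to between 2499 and 3286 cpm over 7 genes, with Scn10a the most abundant, and all 7 were detected in every library.

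To show the DNA next to which these genes start, the windows before the RefSeq start site are given for Th and Slc18a2, which had even levels over the libraries, and for Phox2a and Hand2, which were concentrated in a few of them (GRCm38.p6, 5′ to 3′ on the strand of the gene). Windows are 250 bases, and 19 bases that GENCODE lists as Th exon were left off the end of the Th window. Th is on the minus strand at chr7:142900015-142900245, and Slc18a2 (chr19:59260628-59260877), Phox2a (chr7:101818063-101818312) and Hand2 (chr8:57320733-57320982) are on the plus strand. Capitals mark TGACGTCA, the cAMP response element, and ATTA, the core bound by homeodomain proteins, on either strand.
Th: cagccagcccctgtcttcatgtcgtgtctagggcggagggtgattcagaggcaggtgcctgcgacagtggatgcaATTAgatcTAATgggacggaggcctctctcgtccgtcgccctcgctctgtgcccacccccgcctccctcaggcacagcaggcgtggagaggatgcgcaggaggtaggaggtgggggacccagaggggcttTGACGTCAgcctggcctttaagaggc
Slc18a2: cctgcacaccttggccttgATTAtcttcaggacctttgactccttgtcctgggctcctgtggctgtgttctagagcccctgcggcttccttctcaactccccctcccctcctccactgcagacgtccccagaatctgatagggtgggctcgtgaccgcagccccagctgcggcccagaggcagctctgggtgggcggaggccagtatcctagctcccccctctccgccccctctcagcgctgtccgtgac
Phox2a: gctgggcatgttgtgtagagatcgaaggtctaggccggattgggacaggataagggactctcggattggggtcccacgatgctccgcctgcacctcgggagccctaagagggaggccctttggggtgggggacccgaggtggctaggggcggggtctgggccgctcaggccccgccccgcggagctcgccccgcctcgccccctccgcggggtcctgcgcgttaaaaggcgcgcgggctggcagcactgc
Hand2: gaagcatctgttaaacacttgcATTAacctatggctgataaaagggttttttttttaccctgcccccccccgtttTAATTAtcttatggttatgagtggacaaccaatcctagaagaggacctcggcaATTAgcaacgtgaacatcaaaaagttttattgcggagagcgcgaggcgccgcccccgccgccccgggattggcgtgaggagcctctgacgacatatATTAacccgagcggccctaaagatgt

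The Th window held 1 match to TGACGTCA, 45 bases before the start site, and none of the other members' windows held one. Over 32851 RefSeq windows of 250 bases, 1.55% held this motif, which reads the same on both strands. ATTA was matched 5 times before Hand2, with overlapping matches counted, 2 times before Th, 1 time before Slc18a2 and 0 times before Phox2a. The core was present in 54.9% of all windows, and 17.3% held at least 3 matches. The whole Hand2 window was also exon of the antisense gene Hand2os1. Windows were at hand for 7 members, Slc6a2 being the other, and that of Dbh lay entirely within an annotated Dbh exon and is not printed. These matches describe the letters in the windows and were not related to the levels by any test.

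Th, the enzyme of the first and rate-limiting step, was the most abundant member and nearly even over the libraries. Its locus is chr7:142892752-142931128 on the minus strand (GENCODE M21, mm10), with no exon shared with another gene. WT libraries 1, 2 and 3 had 472, 514 and 477 counts of Th, the Isl1Cre/+ libraries 395, 434 and 500, and the Meis2 mutant libraries 370, 367 and 353. All 3 Meis2 mutant libraries were below all 3 WT libraries, and the Isl1Cre/+ libraries reached into the range of the WT and of the mutant. The level was 17.4 ± 0.837 cpm in WT, 15.5 ± 2.09 cpm in Isl1Cre/+ and 14.0 ± 0.322 cpm in Meis2 mutant libraries (SD, n = 3). In bulk RNA, fewer cells of a type and less RNA per cell cannot be told apart, here and in every result that follows.

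Ddc, which makes dopamine from L-DOPA and is also needed for serotonin, lies at chr11:11814101-11898144 on the minus strand. In the same order of libraries, Ddc had 21, 41 and 52 counts in WT, then 17, 10 and 5 in Isl1Cre/+, then 17, 61 and 38 in Meis2 mutant ganglia. The Isl1Cre/+ libraries were the lowest, below every library of the other genotypes once scaled, while WT and mutant libraries overlapped. The level was 1.34 ± 0.513 cpm in WT, 0.369 ± 0.20 cpm in Isl1Cre/+ and 1.5 ± 0.836 cpm in Meis2 mutant libraries (SD, n = 3).

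Slc18a2, which fills vesicles with any of the monoamines, lies at chr19:59260896-59296012 on the plus strand. The WT libraries had 65, 109 and 131 counts of Slc18a2, against 114, 109 and 110 for Isl1Cre/+ and 90, 88 and 99 for the Meis2 mutant. WT library 1 was the lowest of the 9 and WT library 3 the highest, so that the WT range enclosed the other genotypes. Its level was 3.6 ± 1.07 cpm in WT, 3.87 ± 0.009 cpm in Isl1Cre/+ and 3.58 ± 0.402 cpm in Meis2 mutant libraries (SD, n = 3). Of its exonic bases, 2.12% lay opposite exons of Gm29261.

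Dbh, which makes noradrenaline and is confined to cells that use it or adrenaline, lies at chr2:27165233-27183200 on the plus strand. The WT libraries had 10, 138 and 42 counts of Dbh, against 0, 10 and 0 for Isl1Cre/+ and 10, 13 and 48 for the Meis2 mutant. WT library 2 stood far above the other WT libraries, and Meis2 mutant library 3 above the other mutant libraries. WT library 2 exceeded WT library 1 by 13.0-fold after scaling, with a 95% interval of 6.85 to 27.7 from counting error alone. The 0 counts in Isl1Cre/+ libraries 1 and 3 allow up to 0.102 and 0.105 cpm, the level of 3 counts. The level was 2.23 ± 2.34 cpm in WT, 0.119 ± 0.205 cpm in Isl1Cre/+ and 0.942 ± 0.884 cpm in Meis2 mutant libraries (SD, n = 3), so that in WT and Isl1Cre/+ the SD exceeded the mean.

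Slc6a2, the noradrenaline transporter of sympathetic nerves, lies at chr8:92960079-93001667 on the plus strand. The WT libraries had 5, 166 and 35 counts of Slc6a2, against 1, 8 and 1 for Isl1Cre/+ and 2, 7 and 58 for the Meis2 mutant. The same libraries stood out as for Dbh, and the 3 genotypes overlapped. WT library 2 exceeded WT library 1 by 31.2-fold (95% counting interval 13.1 to 97.4). The level was 2.41 ± 3.02 cpm in WT, 0.118 ± 0.144 cpm in Isl1Cre/+ and 0.902 ± 1.27 cpm in Meis2 mutant libraries (SD, n = 3).

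Phox2a, a homeodomain factor of noradrenergic neurons, lies at chr7:101818313-101822726 on the plus strand. The WT libraries had 10, 43 and 9 counts of Phox2a, against 1, 3 and 1 for Isl1Cre/+ and 4, 5 and 25 for the Meis2 mutant. All Isl1Cre/+ libraries were below all others, and mutant library 3 was above WT libraries 1 and 3. The level was 0.733 ± 0.677 cpm in WT, 0.059 ± 0.042 cpm in Isl1Cre/+ and 0.453 ± 0.492 cpm in Meis2 mutant libraries (SD, n = 3). Exons of Inppl1 lay opposite 4.67% of its exonic bases.

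Hand2, a basic helix-loop-helix factor of sympathetic neurons that is also active in heart and limb, lies at chr8:57320983-57324633 on the plus strand. The WT libraries had 16, 64 and 18 counts of Hand2, against 3, 4 and 2 for Isl1Cre/+ and 5, 13 and 27 for the Meis2 mutant. The order of the libraries was close to that of Phox2a, with WT library 2 highest, mutant library 3 next and the Isl1Cre/+ libraries lowest. The level was 1.16 ± 0.949 cpm in WT, 0.105 ± 0.036 cpm in Isl1Cre/+ and 0.594 ± 0.466 cpm in Meis2 mutant libraries (SD, n = 3). As 19.6% of its exonic bases lay opposite Hand2os1 and the strand setting of the counting is not given in the sources used here, some counts may belong to the antisense gene.

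Gata3, a zinc-finger factor that sympathetic neurons need for noradrenaline synthesis and that T cells and the inner ear also use, lies at chr2:9857078-9890034 on the minus strand. The WT libraries had 21, 20 and 14 counts of Gata3, against 6, 5 and 0 for Isl1Cre/+ and 5, 19 and 22 for the Meis2 mutant. It had no peak in WT library 2, the 3 WT libraries differing by at most 1.63-fold (95% counting interval 0.788 to 3.46), and mutant library 1 fell within the Isl1Cre/+ range. The level was 0.658 ± 0.156 cpm in WT, 0.127 ± 0.111 cpm in Isl1Cre/+ and 0.601 ± 0.370 cpm in Meis2 mutant libraries (SD, n = 3). Of its exonic bases, 3.90% lay opposite Gm13256 and 1.94% were shared with 9230102O04Rik on the same strand.

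**Figure D1:**
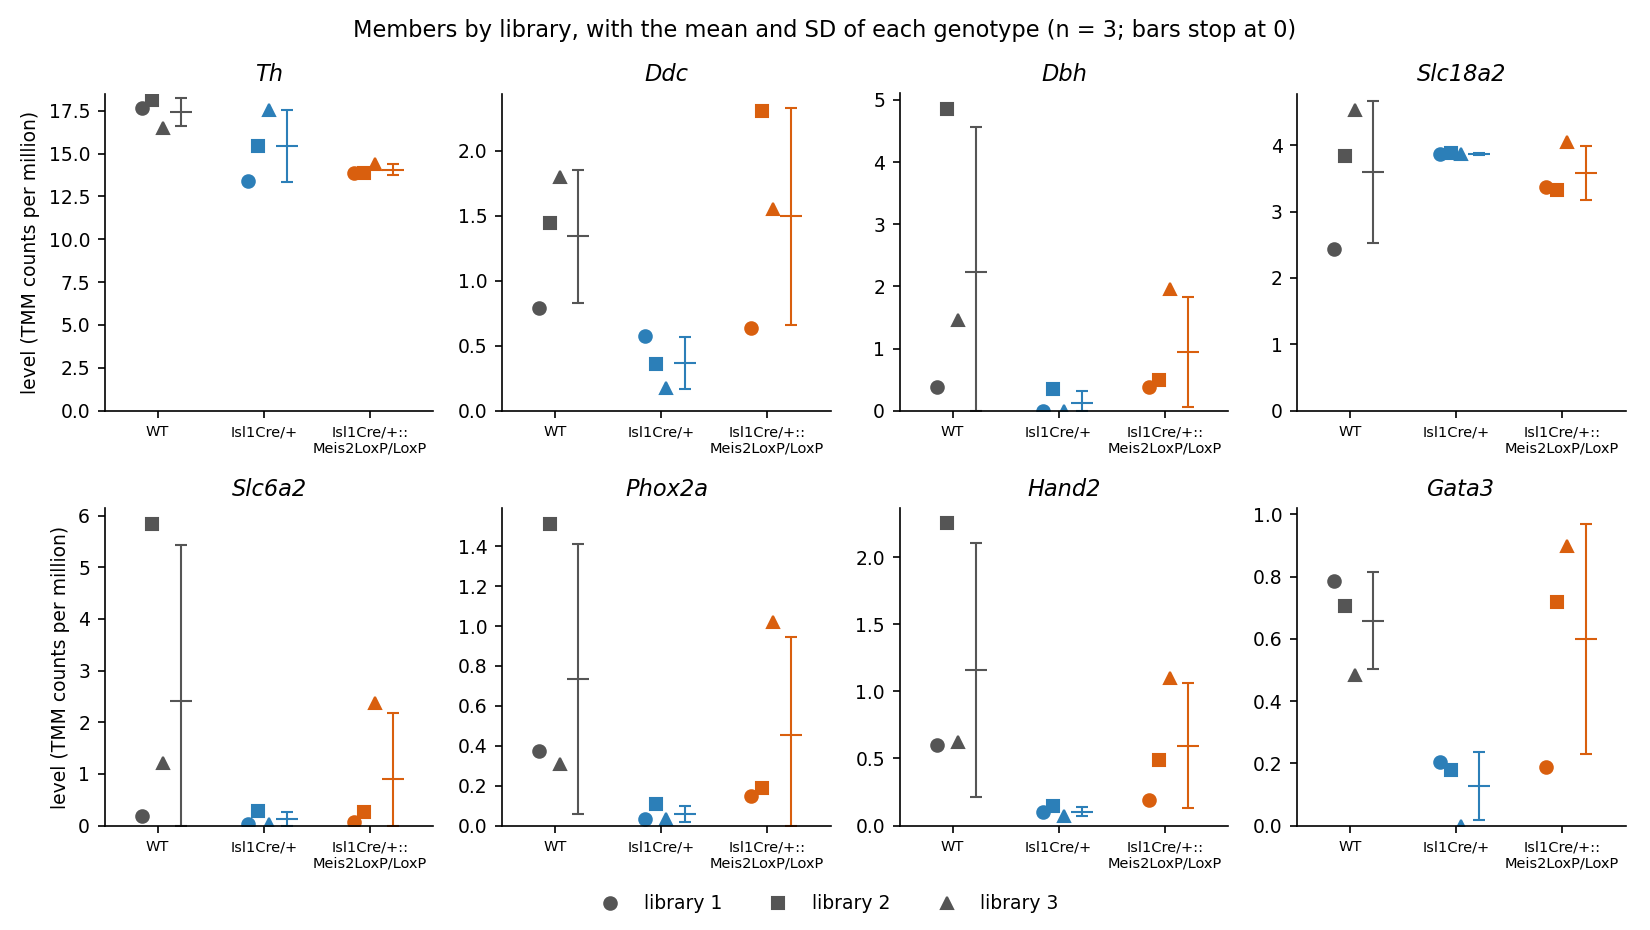
Level of each of the 8 genes in cpm after TMM scaling (linear axes from 0) in the 3 libraries of WT, Isl1Cre/+ and Isl1Cre/+::Meis2LoxP/LoxP ganglia, with the genotype mean and SD (n = 3, lower bars stopped at 0) beside the points. Th stayed between 13.4 and 18.1 cpm and Slc18a2 between 2.43 and 4.53 cpm, while WT library 2 (squares) and mutant library 3 (triangles) stood apart for Dbh, Slc6a2, Phox2a and Hand2.

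Levels were compared between the genes per kilobase of exon. Th averaged 6.62 cpm per kb over the 9 libraries, Slc18a2 0.705 and Dbh 0.407 cpm per kb. Hand2 was at 0.263, Ddc at 0.240, Phox2a at 0.204, Slc6a2 at 0.182 and Gata3 at 0.116 cpm per kb. Th lay above every library value of the others, and the other neighbours in this order overlapped over the libraries. Th counts exceeded Dbh counts in every library, by 3.72 times in WT library 2, where the ratio was smallest, and by 47.2 times in WT library 1.

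How far each gene was concentrated in single libraries was expressed as the share of its summed 9-library level found in its highest library. An even gene would have 11.1% there, and the median was 14.4% over the 7546 genes whose summed counts lay in the range of the 8 members, 101 to 3882. WT library 2 held 56.7% of the level of Slc6a2, 49.3% of Dbh, 40.5% of Phox2a and 40.5% of Hand2. Mutant library 3 was second for all 4 genes, and with it the share reached 79.7% for Slc6a2, 69.1% for Dbh, 67.9% for Phox2a and 60.3% for Hand2. The shares of the other 4 genes were smaller. Ddc had 23.9% in mutant library 2, Gata3 21.6% in mutant library 3, Slc18a2 13.7% in WT library 3 and Th 12.9% in WT library 2. As the set was chosen with peaks in single libraries known, these shares are not read against the median of 14.4%.

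**Figure D2:**
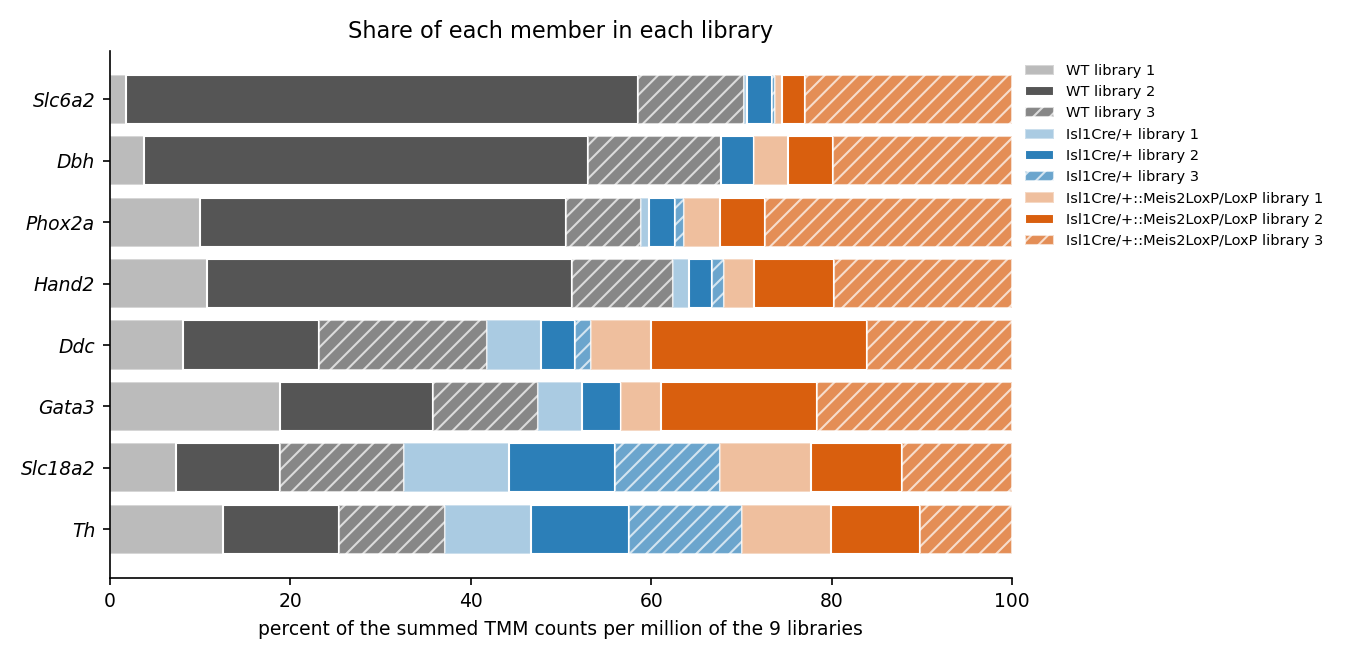
Share of each gene's summed cpm (horizontal axis, percent) that fell in each of the 9 libraries, coloured by genotype and shaded by library number. WT library 2 took 56.7% of Slc6a2 and 49.3% of Dbh, against 12.9% of Th.

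The 4 genes most concentrated in WT library 2 also moved together over the other libraries. On log2(cpm + 0.5) over the 9 libraries, Dbh had a Pearson r of 0.976 with Slc6a2, 0.947 with Hand2 and 0.936 with Phox2a, with Spearman rho of 0.895, 0.979 and 0.946. Without WT library 2 and mutant library 3, the libraries farthest from the median of Dbh, r was 0.924, 0.790 and 0.771. Ddc had r = 0.833 with Gata3 and 0.663 with Dbh, with rho of 0.767 and 0.803, and r of 0.734 and 0.801 without Isl1Cre/+ library 3 and mutant library 2, the libraries farthest from the median of Ddc. Th was far less like Dbh (r = 0.333, rho = 0.385, and r = -0.327 without the 2 libraries farthest from the Th median, WT 2 and Isl1Cre/+ 1), as was Slc18a2 (r = 0.280, rho = 0.075, and 0.175 without WT 2 and mutant 3). The set was chosen with peaks in single libraries known, so high r among these 4 genes was in part given by that choice. The Isl1Cre/+ libraries, low for all 4, remained in the values without WT library 2 and mutant library 3. All these values describe 9 libraries that fall into 3 genotypes and share a range of depth, and no p is attached to them.

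By the same measure, the tested genes outside the set most like Dbh were Grk3 (r = 0.899), Smpd5 (0.898), Mtmr11 (0.882), Pik3c2b (0.882) and Kdm8 (0.879), each highest in WT library 2. By rank correlation, 0 of these 5 were again among the 5 most like Dbh. The genes most like Th were Htr7 (0.941), Trpv1 (0.922), Dus4l (0.912), Dlg2 (0.910) and Chrnb4 (0.908). Htr7 is a serotonin receptor, Trpv1 the heat and capsaicin channel of nociceptors and Chrnb4 a nicotinic receptor subunit. By rank correlation, 2 of the 5, Htr7 and Chrnb4, were again among the 5 most like Th.

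The first comparison, Meis2 mutant against WT, sets the full genotype against embryos named with neither altered allele. Of the 8 genes, 4 had at least 100 counts in at least 1 library and entered the fit over 13200 genes, namely Th, Slc18a2, Dbh and Slc6a2, and the last pair entered through WT library 2 alone. The criterion, taken from the study, was a change of 1.2-fold or more together with p under 0.05 before adjustment, here by the quasi-likelihood test of edgeR, and 0.318% of all genes tested met it. Of the 4 members, 1 met it. Th was lower in Meis2 mutant ganglia, with a log2 fold change of -0.31 (SE 0.098, adjusted p = 1.0 by Benjamini-Hochberg over all genes), and no longer met the criterion without WT library 2, at -0.28. Dbh differed by -1.26 (SE 0.941) and Slc6a2 by -1.44 (SE 1.28), without meeting it, and without WT library 2 these became 0.02 and 0.33. Without mutant library 3 they were -2.36 and -3.80, and Slc6a2 then met the criterion. Slc18a2 differed by -0.01 (SE 0.260).

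Without a filter on low counts, 33884 genes entered the fit and 1.2% of them met the criterion in this comparison. Of the 8 members, 1 did, again Th. Counting libraries rather than tests, the 3 mutant libraries lay entirely to 1 side of the 3 WT libraries for 1 member, Th, which was below, and for 4.98% of the 7546 genes in the members' count range.

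The second comparison, Meis2 mutant against Isl1Cre/+, holds the Isl1Cre allele constant. Here 1.67% of the genes tested met the criterion, and 1 of 4 members did. Dbh was higher in the Meis2 mutant, with a log2 fold change of 2.95 (SE 1.25, adjusted p = 1.0 by the quasi-likelihood test of edgeR, Benjamini-Hochberg), and 1.85 without mutant library 3, when it did not meet the criterion. It also failed to meet it without Isl1Cre/+ library 1 or 3, in a fit of all 3 genotypes together, and with the replicate number as a block. Slc6a2 differed by 2.88 (SE 1.43), falling to 0.52 without mutant library 3, Th by -0.14 (SE 0.111) and Slc18a2 by -0.11 (SE 0.157), none of which met it.

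With no filter on low counts, 6 of 8 members met the criterion and were higher in the Meis2 mutant than in Isl1Cre/+ ganglia, namely Ddc, Dbh, Slc6a2, Phox2a, Hand2 and Gata3, against 3.03% of all genes fitted. None had an adjusted p under 0.05 in edgeR's test over all genes. Ddc had a log2 fold change of 1.98 (SE 0.438), Hand2 of 2.42 (SE 0.626), Phox2a of 2.82 (SE 0.836) and Gata3 of 2.17 (SE 0.664). The mutant libraries lay wholly above the Isl1Cre/+ libraries for 4 members, Ddc, Dbh, Phox2a and Hand2, and to either side for 9.78% of the genes in the members' count range. Since the members were chosen with these differences known, their counts cannot be read against those shares.

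The third comparison, Isl1Cre/+ against WT, sets embryos with the Isl1Cre allele against embryos without it. The groups also differed in muscle and red cell genes, given below, and the part of the allele in the differences was not tested. The criterion was met by 1.4% of the genes tested and by 2 of 4 members, Dbh and Slc6a2. As this pair passed the filter through WT library 2 alone, in the group where they were high, their count is not read against that share. Dbh was lower in Isl1Cre/+, at a log2 fold change of -4.21 (SE 1.30), and Slc6a2 at -4.33 (SE 1.38), each with an adjusted p of 1.0 in edgeR's quasi-likelihood test. Without WT library 2 the values were -2.93 and -2.55, and Slc6a2 then no longer met the criterion, nor did it without Isl1Cre/+ library 1 or with limma voom. Isl1Cre/+ library 2 held all the Dbh counts of its group, and without it the fitted change of Dbh, then against libraries at 0, is no measure of size. Th differed by -0.16 (SE 0.119) and Slc18a2 by 0.11 (SE 0.242).

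Without the filter, the 6 members named above met the criterion here too, all lower in Isl1Cre/+ than in WT, where 2.49% of all genes fitted did, and none had an adjusted p under 0.05. Hand2 had a log2 fold change of -3.41 (SE 0.627), Phox2a of -3.55 (SE 0.780), Gata3 of -2.30 (SE 0.561) and Ddc of -1.84 (SE 0.408). The Isl1Cre/+ libraries lay below all WT libraries for 5 members, Ddc, Dbh, Phox2a, Hand2 and Gata3, and to either side for 8.24% of the genes in the members' count range. Dbh rests on the scaling, because WT library 1 and Isl1Cre/+ library 2 had 10 counts each, and with library size alone the count was 4. This comparison and the second share the Isl1Cre/+ libraries, so that low values there enter both.

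**Figure D3:**
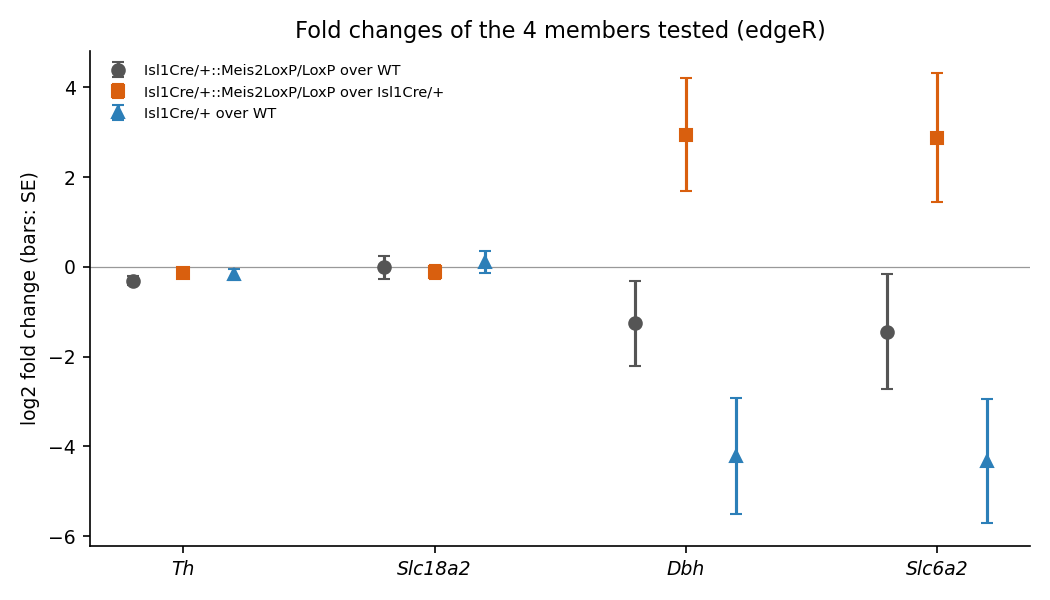
Log2 fold change (vertical axis) with its SE from edgeR for the 4 members tested, in the 3 comparisons of genotypes. Dbh and Slc6a2 reached 2.95 and 2.88 over Isl1Cre/+ and -4.21 and -4.33 for Isl1Cre/+ over WT with wide errors, while Th and Slc18a2 stayed between -0.31 and 0.11.

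Other genes of the pathway were taken from 5 lists of 37 genes in all, of which 22 were tested. In Meis2 mutant against WT ganglia, 0 rose and 2 fell, Chrna3 and Chrnb4, and the median log2 fold change was -0.06. In the other comparisons 0 of 22 met the criterion, with medians of -0.02 in Meis2 mutant against Isl1Cre/+ and -0.03 in Isl1Cre/+ against WT. Of all genes tested, 0.318% met it in Meis2 mutant against WT, 1.67% in Meis2 mutant against Isl1Cre/+ and 1.4% in Isl1Cre/+ against WT. The lists were chosen with earlier results of these data known, so their counts are not read against those shares. The enzymes that make and recycle tetrahydrobiopterin, the cofactor of Th, had 7 of 8 genes tested and none that met the criterion in any comparison. Qdpr, which regenerates the cofactor, was the most abundant of them at 52.5 ± 1.09 cpm in WT, 49.3 ± 2.12 cpm in Isl1Cre/+ and 51.2 ± 3.40 cpm in Meis2 mutant libraries (SD, n = 3). Pts and Spr, which complete the synthesis, averaged 22.7 and 21.2 cpm over the 9 libraries.

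Enzymes of catecholamine breakdown did not meet the criterion in any comparison. The monoamine oxidase Maoa was at 135 ± 3.81 cpm in WT, 134 ± 4.51 cpm in Isl1Cre/+ and 131 ± 5.30 cpm in Meis2 mutant libraries, and Maob averaged 14.6 cpm. Of 9 other genes of monoamine synthesis and transport, 3 were tested and none met the criterion. These were Slc29a4, a low-affinity monoamine transporter, at an average of 78.9 cpm, Cyb561, which supplies electrons for the Dbh reaction inside vesicles, at 22 cpm, and Tph2, which starts serotonin synthesis in neurons, at 3.19 cpm. Cyb561 had 498 to 713 counts a library, with the highest in WT library 2.

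Among 6 further transcription factors of sympathetic neuron development, 1 had enough counts to be tested. This was Insm1, at 6.46 ± 1.61 cpm in WT, 5.53 ± 1.37 cpm in Isl1Cre/+ and 5.95 ± 0.609 cpm in Meis2 mutant libraries, which did not meet the criterion. Gata2 averaged 2.09 cpm and had 37 to 79 counts a library. Tfap2b, an AP-2 factor of sympathetic neurons, had 19, 58 and 33 counts in WT, then 4, 7 and 2 in Isl1Cre/+ and 11, 11 and 26 in Meis2 mutant libraries. Like Dbh, Tfap2b was highest in WT library 2 and lowest in the Isl1Cre/+ libraries, with r = 0.959 to Dbh (rho = 0.962), and 0.918 without WT library 2 and mutant library 3. Hand1, with 13 counts in WT library 2 and at most 4 in any other library, had r = 0.869 to Dbh.

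Without the filter, Tfap2b met the criterion by edgeR in both comparisons with Isl1Cre/+, and Hand1 in Isl1Cre/+ against WT. Tfap2b was higher in the Meis2 mutant than in Isl1Cre/+ by 2.0 on the log2 scale (SE 0.530). In Meis2 mutant against WT ganglia, 3 of the 37 pathway genes met it without a filter, beside 1.2% of all genes fitted. All 3 were lower: Tfap2b, at -1.04 (SE 0.435), Npy, at -0.86 (SE 0.344), and Chrnb4. None of these had an adjusted p under 0.05.

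Of 11 peptides, granule proteins and nicotinic subunits that sympathetic neurons use, 8 were tested. Chrna3, the subunit of the ganglionic nicotinic receptor, was at 12.0 ± 0.603 cpm in WT, 9.70 ± 1.76 cpm in Isl1Cre/+ and 9.59 ± 0.497 cpm in Meis2 mutant libraries, and fell by 0.33 on the log2 scale between WT and Meis2 mutant (SE 0.110, unadjusted p = 0.0197, adjusted p = 1.0, edgeR quasi-likelihood test). Chrnb4, its partner subunit, was at 6.41 ± 0.262, 5.30 ± 1.17 and 4.70 ± 0.683 cpm and fell by 0.45 (SE 0.161, unadjusted p = 0.0258, adjusted p = 1.0, same test). Neither subunit met the criterion without WT library 3 or without mutant library 1, and Chrnb4 did not without WT library 2, nor Chrna3 without mutant library 2. Chrna3 also missed it without a filter on low counts (unadjusted p = 0.0547, same test), and Chrnb4 with library size as the only scaling. The granule proteins Scg2 and Chga averaged 291 and 192 cpm and Dlk1 133 cpm, and none of them met the criterion. Npy, a peptide of many sympathetic neurons, had 66, 36 and 50 counts in WT, then 73, 11 and 7 in Isl1Cre/+ and 13, 34 and 29 in Meis2 mutant libraries. It was highest in Isl1Cre/+ library 1, where Dbh had 0 counts, and had r = 0.192 to Dbh.

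Of 9 symbols listed as marking the Th-expressing C-LTMRs, 8 were in the table, Fam19a4 being an older name of Tafa4. All 8 were tested, and none met the criterion in any comparison. Their summed level was 370 to 473 cpm in WT, 403 to 441 cpm in Isl1Cre/+ and 374 to 440 cpm in Meis2 mutant libraries, with Zfp521 the most abundant. Th itself ran from 13.4 to 18.1 cpm over the libraries, and was lower in every Meis2 mutant library than in every WT library. Whether the listed genes mark C-LTMRs alone at this age, and which cells gave the Th counts, was not tested. The summed level of Dbh, Slc6a2, Phox2a and Hand2 varied more. It was 14.5 cpm in WT library 2, 6.45 cpm in mutant library 3 and 0.140 cpm in Isl1Cre/+ library 3. That sum was 10.1 times its median over the libraries in WT library 2. For the 7 members other than Th it was 3.69 times, and 5.35 times without Slc18a2, the most abundant of them.

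**Figure D4:**
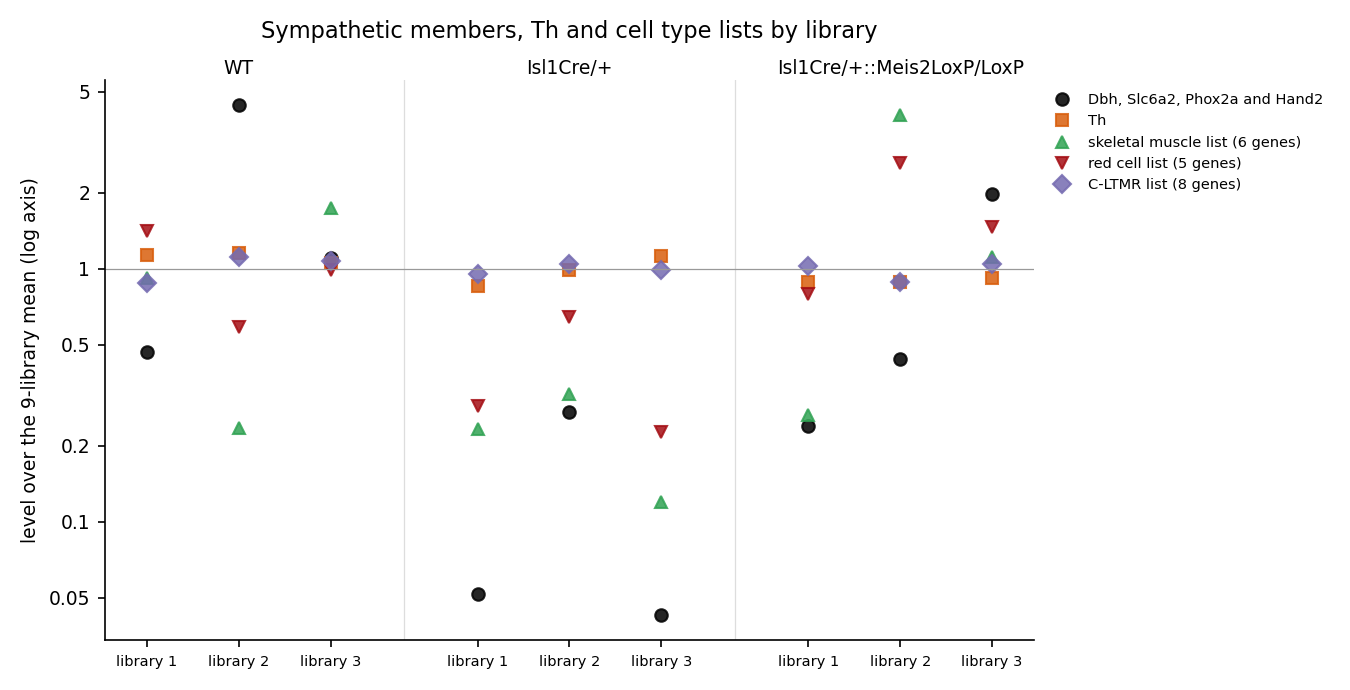
Level in each library divided by its own mean over the 9 libraries (log axis) for the sum of Dbh, Slc6a2, Phox2a and Hand2, for Th, and for the summed skeletal muscle, red cell and C-LTMR lists, with the genotypes side by side. The sympathetic sum was highest in WT library 2 at 14.5 cpm, where the muscle list was the lowest of the WT libraries at 120 cpm, while Th and the C-LTMR list stayed near their mean.

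Markers of other cells also moved between the genotypes. All 6 skeletal muscle genes, with Acta1 the most abundant, and all 5 red cell genes, with Hbb-bs the most abundant, met the criterion as lower in Isl1Cre/+ than in WT and as higher in the Meis2 mutant than in Isl1Cre/+. The muscle sum was 120 to 882 cpm in WT, 60.6 to 162 cpm in Isl1Cre/+ and 134 to 2063 cpm in Meis2 mutant libraries. The red cell sum was 891 to 2120 cpm in WT, 341 to 975 cpm in Isl1Cre/+ and 1203 to 3937 cpm in Meis2 mutant libraries. Over genotypes these lists were thus lowest where the 6 members were lowest, and their part in the result was not tested. Over libraries the 2 patterns met in some groups and not in others. Mutant library 1, with 10 Dbh counts, was the lowest of its group for the muscle and red cell sums, and Isl1Cre/+ library 2, the only library of its group with Dbh counts, had the highest of both sums, at 162 and 975 cpm. WT library 2, the highest for Dbh, had the lowest muscle and red cell sums of the WT libraries, and mutant library 2, with the highest of all 9, had 13 Dbh counts.

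Of 6 genes of adrenal cortex, a neighbour of the noradrenaline-producing adrenal medulla, 5 had 0 to 6 counts a library and Star had 17 to 26. None of the 6 passed the filter, and their sum was 0.760 to 1.12 cpm in WT, 1.02 to 1.07 cpm in Isl1Cre/+ and 1.05 to 1.1 cpm in Meis2 mutant libraries. The sum was 0.986 cpm in WT library 2 and 1.06 cpm in mutant library 3. At such low counts it cannot show whether adrenal tissue was carried along, which was not tested. Of 8 glial and 6 fibroblast genes, led by Fabp7 and Col1a1, none met the criterion in any comparison, and of 6 motor neuron genes 2 were tested, led by Isl2, with the same outcome. Of 5 endothelial genes, led by Cdh5, 2 met it as higher in Isl1Cre/+ than in WT and 1 as lower in the Meis2 mutant than in Isl1Cre/+. Among the sensory genes Isl1 alone met it, at 260 ± 30.2 cpm in WT, 185 ± 19.0 cpm in Isl1Cre/+ and 187 ± 24.6 cpm in Meis2 mutant libraries (SD, n = 3).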

How the data were processed

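DRG of 9 E18.5 mouse embryo samples were sequenced, 3 for each of 3 genotypes, after poly(A) selection and library preparation with the CORALL kit. The authors deposited a table of raw counts per gene for 55247 genes. Their processing notes name STAR 2.7.10, HTSeq 0.6 and limma with GRCm38 (mm10), and the strand setting of the counting is not given in the sources used here. The same deposited table holds 18 columns of the authors' own comparisons (log2 fold changes, p-values and adjusted p-values, and score statistics), which were not used.

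Groups followed the labels. Gene positions and exon lengths came from GENCODE M21, to which 55154 identifiers matched, and promoter windows from RefSeq (GRCm38.p6). Counts were tested with edgeR 4.0.16 (TMM, quasi-likelihood, two-sided) in R 4.3.3, for each pair of genotypes alone, on the genes that reached 100 counts in 1 library or more. The criterion, a fold change of at least 1.2 with an unadjusted p under 0.05, follows the study, whose own tool was limma voom. Benjamini-Hochberg adjustment was over all genes tested. The scripts were tested on simulated data with known changes. Alternatives used DESeq2 1.42.0, limma 3.58.1, other scalings and filters, and left out each library. Correlations used log2(cpm + 0.5), with Python 3.11.15 and scipy 1.17.1. Intervals are exact Poisson or binomial at 95% and, with the floor of 3 counts for a 0, cover counting error only.

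The 8 members, the gene lists and the criterion were chosen with earlier results of these data known. Named genes were the members, from each pathway list the 3 most abundant and each gene that met the criterion, from each marker list the most abundant gene, the 5 genes most like Dbh and the 5 most like Th, and Meis2 and Isl1 as checks. Genes that met it only in the fit without a filter were included. The number printed with the libraries pairs nothing in the labels: deviations of same-numbered libraries correlated between -0.569 and 0.385. Some genes of the lists are not reported here.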

Additional observations from a re-analysis of the deposited data

How the results depend on the processing

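The number of members that met the criterion in Meis2 mutant against WT was 1, and 0 to 2 when a library was left out. In Meis2 mutant against Isl1Cre/+ it was 1, but 6 without a filter on low counts, 5 with at least 10 counts in at least 3 libraries, 2 with DESeq2, 0 in a fit of all 3 genotypes and 0 to 2 with a library left out. In Isl1Cre/+ against WT it was 2, but 6 without a filter, 6 with the filter of 10 counts, 1 with limma voom and 1 to 2 with a library left out. For the pathway lists, the count of 2 in Meis2 mutant against WT became 1 with library size alone, 3 without a filter (Chrnb4, Npy and Tfap2b, without Chrna3) and 0 to 2 with a library left out. The count of 0 in Meis2 mutant against Isl1Cre/+ became 2 without a filter, 1 with the filter of 10 counts and 0 to 2 with a library left out. That of 0 in Isl1Cre/+ against WT became 3, 1 and 0 to 2, and 1 (Chrna3) in a fit of all 3 genotypes. No library number pairs the samples. With the replicate number as a block, 0 members met the criterion in Meis2 mutant against Isl1Cre/+ and 1 pathway gene, Chrna3, in Isl1Cre/+ against WT, and the other counts did not move. The sum of the members other than Th was 3.69 times its median in WT library 2 and 5.35 times without Slc18a2. The causes were not tested, except that the filters change by construction which genes enter. The libraries that decided calls were WT library 2 for Th and Slc6a2, mutant library 3 and Isl1Cre/+ libraries 1 and 3 for Dbh against Isl1Cre/+, and Isl1Cre/+ library 1 for Slc6a2 against WT. Mutant library 3 also kept Slc6a2 from the criterion against WT, where it had -3.80 without it, and mutant libraries 1 and 2 each kept it from the criterion against Isl1Cre/+. Among the pathway genes, Cartpt met it against WT without mutant library 2, Maob against Isl1Cre/+ without Isl1Cre/+ library 1, Dlk1 against Isl1Cre/+ without mutant library 1, and Chrna3 and Chrnb4 in Isl1Cre/+ against WT without Isl1Cre/+ library 3. The count of members whose libraries do not overlap was recomputed with other scalings, chosen after seeing the data, and stayed within 1.5 times. Of the single-gene fold changes, shares and likeness lists under all alternatives, 171 stayed within the spread between replicates (lists: within 1.5 times) and 15 did not. Slc18a2, near 0 in Meis2 mutant against WT, had the other sign in 8 of 14 alternatives. All members but Th had 0 to 166 counts a library, which limits the precision of their levels.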
